A study of Homo sapiens with 6 samples.

Results

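Respiratory complex I is the NADH dehydrogenase of the inner mitochondrial membrane. It takes electrons from NADH, passes them through a flavin and a chain of iron-sulfur clusters to ubiquinone, and pumps protons across the membrane while doing so. Its matrix arm holds the NADH and ubiquinone sites and its membrane arm holds the proton channels. Core subunits carry out the chemistry, accessory subunits surround and stabilise them, and assembly factors build the complex without remaining in it. Most subunits are encoded in the nucleus under symbols that begin with NDUF, and so are part of the assembly factors. The gene ZFP36 encodes tristetraprolin (TTP), which binds AU-rich elements in the 3′UTRs of mRNAs and directs these mRNAs to decay.

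The genes described here are the 44 protein-coding symbols that begin with NDUF in a table of 18984 symbols with an NM_ RefSeq name. They lie at 43 loci of 406165, because NDUFC2-KCTD14, a read-through name, shares the locus of NDUFC2 and is not counted again. The 43 comprise 7 nuclear-encoded core subunits, 30 accessory subunits, 4 assembly factors (NDUFAF1 to NDUFAF4), and NDUFA4 and NDUFA4L2, which carry the name but are not complex I subunits. The core subunits encoded in mitochondrial DNA are outside this set.

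The cells were PC-3, an established line from a bone metastasis of a prostate adenocarcinoma. All 6 samples carried the Tet-On transactivator rtTA2 from a first retrovirus, were G418-resistant, and received 300 ng/ml doxycycline (Dox) for 4 hours. In the 3 control samples (tdTom) a second retrovirus carried tdTomato alone behind the PGK promoter, and in the other 3 (TTP-tdTom) it also carried TTP behind the Dox-dependent Tight promoter. Both were sorted populations selected on tdTomato, and the labels do not say whether the triplicates were separate cultures. The comparison asks which mRNAs differ when TTP is switched on.

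The authors' table gives 1 FPKM value for each group (fragments per kilobase of transcript, scaled to library size), with no value for a single sample. No spread between replicates, no interval and no test are therefore given. The study's methods state the number of read pairs aimed at per sample, but the table holds no fragment count for any value. A gene is counted as lower or higher here when its FPKM differed by at least 1.5-fold, which is a description of the 2 deposited values. ZFP36 itself had an FPKM of 5.56 in tdTom and 5.54 in the group labelled TTP-tdTom. The table thus shows no rise of TTP mRNA at the ZFP36 locus, and whether transgene fragments were counted there was not tested. Other measures of TTP in these cells are not analysed here. The group is called by its label throughout for that reason. Of the markers of the line, KRT18 (98.2 and 91.5), KRT19 (60.2 and 67.1), KRT8 (20.9 and 19.1) and EPCAM (15.1 and 16.8) were present in tdTom and the labelled TTP-tdTom group, CDH1 was near 0 (0.119 and 0.390), and the prostate genes KLK2, KLK3 and TMPRSS2 lay between 0.333 and 2.53. Of 7 markers of blood, endothelial, fibroblast and muscle cells, 4 were higher in the labelled group (COL1A1 at 4.34 and 4.56, COL1A2 listed at 0 and at 1.38, PTPRC at 0.243 and 0.566, PECAM1 at 0.483 and 0.793) and 3 were lower (CD3E at 0.733 and 0.419, CDH5 at 0.388 and 0.179, DES at 0.0878 and 0.0473). Their part in the values of complex I genes was not tested.

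Among the complex I mRNAs, 3 stood apart from the rest. NDUFA5, NDUFB5 and NDUFS1 had 38.4%, 39.4% and 39.9% of their tdTom FPKM in the group labelled TTP-tdTom, and the other 39 loci with a mean FPKM of at least 1 kept at least 69.5%. At the 1.5-fold threshold 3 of 42 loci (7.14%) were lower and 0 were higher. Over all 11616 symbols with a mean FPKM of at least 1, 22.9% were lower and 1.74% higher, so the share among the NDUF loci was below the background. Without NDUFA4 it was 3 of 41 (7.32%). The same 3 loci were at least 2-fold lower, where the background was 8.26% lower and 0.775% higher. By any amount, 37 of the 42 loci (88.1%) were below their tdTom level, as were 80.8% of all symbols. In bulk RNA, fewer cells of a kind and less RNA per cell cannot be told apart. The median log2 ratio (labelled TTP-tdTom over tdTom) was -0.17 over the 42 loci and -0.24 over all symbols. NDUFA4L2, at a mean FPKM just under the limit, was the locus left out.

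Most members lay closer to the median of all symbols than to the 3 lowest loci. Measured from that median of -0.24, NDUFA5, NDUFB5 and NDUFS1 had log2 ratios of -1.14, -1.10 and -1.09, and 13 of the 42 loci were below 0 instead of 37. A log2 ratio between -0.24 and 0, in every list named here, therefore turns above 0 with this scaling. The 5 loci above 0 stay above it, and the 3 lowest stay below it.

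**Figure D1:**
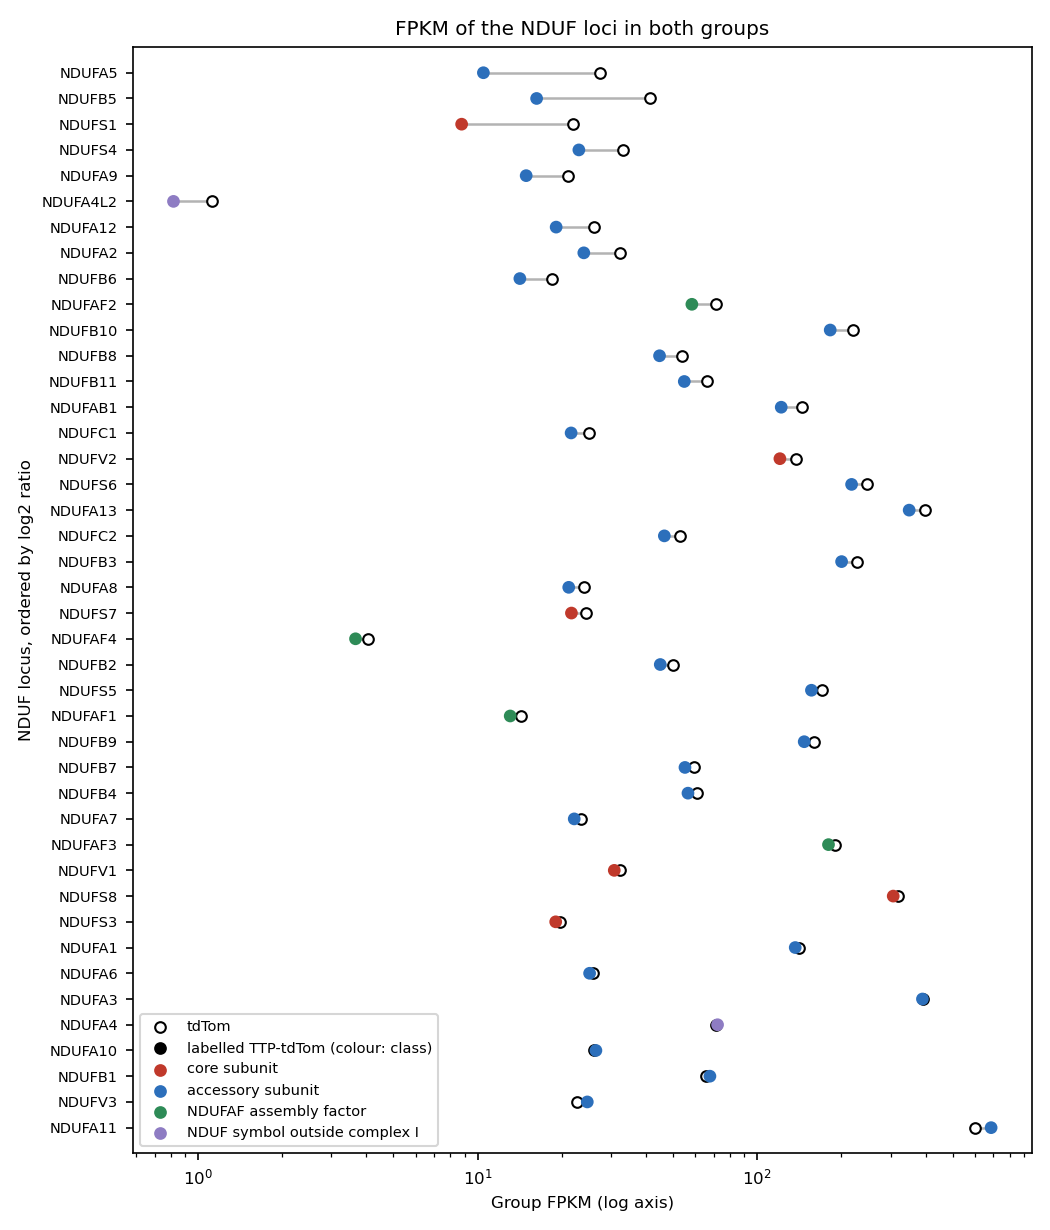
FPKM (log axis) of 42 NDUF loci, ordered from the lowest log2 ratio at the top; open circles are tdTom and filled circles the group labelled TTP-tdTom, coloured by class, 1 deposited value per group and no error. The lines of NDUFA5, NDUFB5 and NDUFS1 at the top are long, and those of most other loci are short at every level of expression.

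NDUFA5 is an accessory subunit of the matrix arm. Its locus (XLOC_343765) lies on chromosome 7 of GRCh37 from 123181083 to 123197972. Its FPKM was 27.3 in tdTom and 10.5 in the group labelled TTP-tdTom, a log2 ratio of -1.38, or 2.61-fold lower. Only 2.22% of all symbols had a lower ratio. NDUFA5 has 12 pseudogenes named after it in GENCODE release 29, and how the authors' alignment divided fragments among such copies was not tested.

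NDUFB5 is an accessory subunit of the membrane arm, at a locus (XLOC_247352) on chromosome 3 from 179322489 to 179343106. It had an FPKM of 41.2 in tdTom and 16.3 in the group labelled TTP-tdTom (log2 ratio -1.34, 2.54-fold lower). NDUFS1 is the core subunit that holds several of the iron-sulfur clusters along which electrons leave the flavin. It lies on chromosome 2 from 206987803 to 207024243 (XLOC_203806). Its FPKM was 22.0 and 8.77, a log2 ratio of -1.33, or 2.51-fold lower. The next locus in the order, NDUFS4, had a log2 ratio 0.80 above that of NDUFS1. The 3 comprise 1 core subunit and 2 accessory subunits and come from both arms.

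The other core subunits stayed close to their tdTom level. NDUFV1, which binds the flavin and NADH, had an FPKM of 32.3 in tdTom and 30.8 in the group labelled TTP-tdTom. NDUFV2, its iron-sulfur partner, had 138.0 and 120.6. Neither was past the threshold, with log2 ratios of -0.07 and -0.19.

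NDUFS7 carries the last iron-sulfur cluster before ubiquinone. It had an FPKM of 24.3 in tdTom and 21.7 in the group labelled TTP-tdTom (log2 ratio -0.17). NDUFS3 and NDUFS8 belong to the connecting part of the matrix arm. NDUFS3 had 19.7 and 19.0, and NDUFS8, the most abundant core subunit per length, had 318.0 and 306.6. Of the 7 core subunits, 1 was at least 1.5-fold lower (14.3%, beside 22.9% of all symbols), all 7 had a ratio below 0 (beside 80.8% of all symbols), and the median log2 ratio was -0.17. With the FPKM of all loci of a symbol summed, NDUFV1 had a log2 ratio of 0.0046 and was no longer below 0.

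Of the 30 accessory subunits, 2 were at least 1.5-fold lower (NDUFA5 and NDUFB5, 6.67%, beside 22.9% of all symbols), 26 had a log2 ratio below 0 (86.7%, beside 80.8%), and the median was -0.19. With the limit set at 0.8 of the tdTom FPKM, 8 of the 42 loci were lower and 0 were higher by the same factor, against 40.6% and 4.3% of all symbols. The additional 5 were all accessory subunits. NDUFS4, a matrix-arm subunit known from its loss in Leigh syndrome, had an FPKM of 33.1 in tdTom and 23.0 in the group labelled TTP-tdTom (log2 ratio -0.52). NDUFA9, which sits where the arms meet, had 21.0 and 14.9 (log2 ratio -0.50). NDUFA12, also of the matrix arm, had 26.05 and 19.10 (log2 ratio -0.45). These 3, with NDUFA2 (32.3 and 24.0, log2 ratio -0.43) and NDUFB6 (18.5 and 14.2, log2 ratio -0.39), were the next in order after the lowest 3.

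At the other end of the order, few accessory subunits had more FPKM in the group labelled TTP-tdTom. NDUFA11, a membrane-arm subunit and the member with the highest FPKM, had 598.9 in tdTom and 686.5 in the labelled group (log2 ratio 0.20). NDUFV3, which sits beside NDUFV1 and NDUFV2, had 22.6 and 24.7 (log2 ratio 0.12). NDUFB1 had 65.8 and 67.8, and NDUFA10 had 26.01 and 26.50, so that neither moved by more than 0.05 on the log2 scale. NDUFA3 and NDUFA6 were as flat. NDUFA3 had an FPKM of 390.3 and 390.0, and NDUFA6 of 25.9 and 25.2. NDUFA13, a membrane-arm subunit also called GRIM-19, had 397.8 and 349.6 (log2 ratio -0.19). The 17 accessory subunits that are neither among the 6 lowest, the 6 highest nor the 3 most abundant, NDUFB6 included, had log2 ratios from -0.39 (NDUFB6) to -0.05 (NDUFA1), tdTom FPKM from 18.5 to 247.8 and labelled TTP-tdTom FPKM from 14.2 to 217.6. That none of the 17 was at least 1.5-fold lower or higher follows from leaving out the lowest and highest ratios.

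The arms were close in their medians. The 16 matrix-arm subunits had a median log2 ratio of -0.19, with 2 of them (NDUFA5 and NDUFS1) at least 1.5-fold lower and 6 at 0.8 of the tdTom FPKM or less (beside 22.9% and 40.6% of all symbols). The 20 membrane-arm subunits had a median of -0.16, with 1 (NDUFB5) and 2 (NDUFB5 and NDUFB6) past these limits. The interquartile range of the log2 ratios was 0.40 in the matrix arm and 0.13 in the membrane arm, beside 0.49 over all symbols. NDUFAB1, the mitochondrial acyl carrier protein, belongs to both arms and had an FPKM of 144.5 in tdTom and 121.9 in the group labelled TTP-tdTom.

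Of the 4 NDUFAF assembly factors, 0 reached 1.5-fold in either direction, where 22.9% of all symbols were lower and 1.74% higher. A list of 4 genes is too short to read that count against the background. NDUFAF1, a scaffold for early membrane-arm assembly, had an FPKM of 14.3 in tdTom and 13.1 in the group labelled TTP-tdTom. NDUFAF2, a relative of NDUFA12 that holds its place late in assembly, had 71.1 and 58.4, the lowest ratio of the 4 (log2 ratio -0.28). NDUFAF3 and NDUFAF4, which act together on the ubiquinone-binding part, differed widely in level. NDUFAF3 had 189.1 and 179.9 and NDUFAF4 had 4.06 and 3.66. The median log2 ratio of the 4 was -0.14.

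The 4 other NDUFAF factors stood in the table under older symbols, and 0 of them reached 1.5-fold. NDUFAF5 (as C20orf7), which modifies NDUFS7, had an FPKM of 11.5 in tdTom and 8.43 in the group labelled TTP-tdTom (log2 ratio -0.44). NDUFAF6 (as C8orf38) had 16.7 and 12.9. NDUFAF7 (as C2orf56), a methyltransferase, had 4.37 and 3.35. NDUFAF8 (as C17orf89), a partner of NDUFAF5, had 70.5 and 60.9 (log2 ratio -0.21). Their median log2 ratio was -0.37, and over all 8 factors it was -0.25, beside -0.24 for all symbols.

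NDUFA4 is now known as a subunit of complex IV. Its FPKM was 70.9 in tdTom and 72.2 in the group labelled TTP-tdTom (log2 ratio 0.02). Its relative NDUFA4L2, a hypoxia-induced gene, was barely expressed at 1.12 and 0.817.

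Assembly factors of complex I whose symbols do not begin with NDUF gave 2 of 12 genes at least 1.5-fold lower (16.7%, beside 22.9% of all symbols), with a median log2 ratio of -0.19. COA1 (as C7orf44) had an FPKM of 8.89 in tdTom and 5.20 in the group labelled TTP-tdTom (log2 ratio -0.77). TMEM70, which also serves ATP synthase assembly, had 15.1 and 9.51 (log2 ratio -0.67). The highest ratio was that of DMAC1 (as C9orf123), at 14.1 and 14.7 (log2 ratio 0.06). TIMMDC1 and TMEM126B, both needed for the membrane arm, had log2 ratios of -0.50 and -0.40.

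In the remaining complexes of oxidative phosphorylation, 1 gene reached 1.5-fold, where 22.9% of all symbols were lower and 1.74% higher. In complex II, 1 of 4 genes (25%) was at least 1.5-fold lower, SDHD, with an FPKM of 42.8 in tdTom and 25.5 in the labelled TTP-tdTom group (log2 ratio -0.75), and the highest ratio was that of SDHB (-0.18). In complex III it was 0 of 9, with log2 ratios from -0.44 (UQCRC2) to -0.04 (UQCRH). In complex IV, in which NDUFA4 is counted again, it was 0 of 11, from -0.37 (COX6A1) to 0.07 (COX6C). In complex V it was 0 of 18, from -0.38 (ATP5C1) to -0.02 (ATP5D). The median log2 ratios were -0.24, -0.08, -0.13 and -0.17 for complexes II to V, beside -0.17 for the NDUF loci. None of these genes had a ratio as low as those of NDUFA5, NDUFB5 and NDUFS1.

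**Figure D2:**
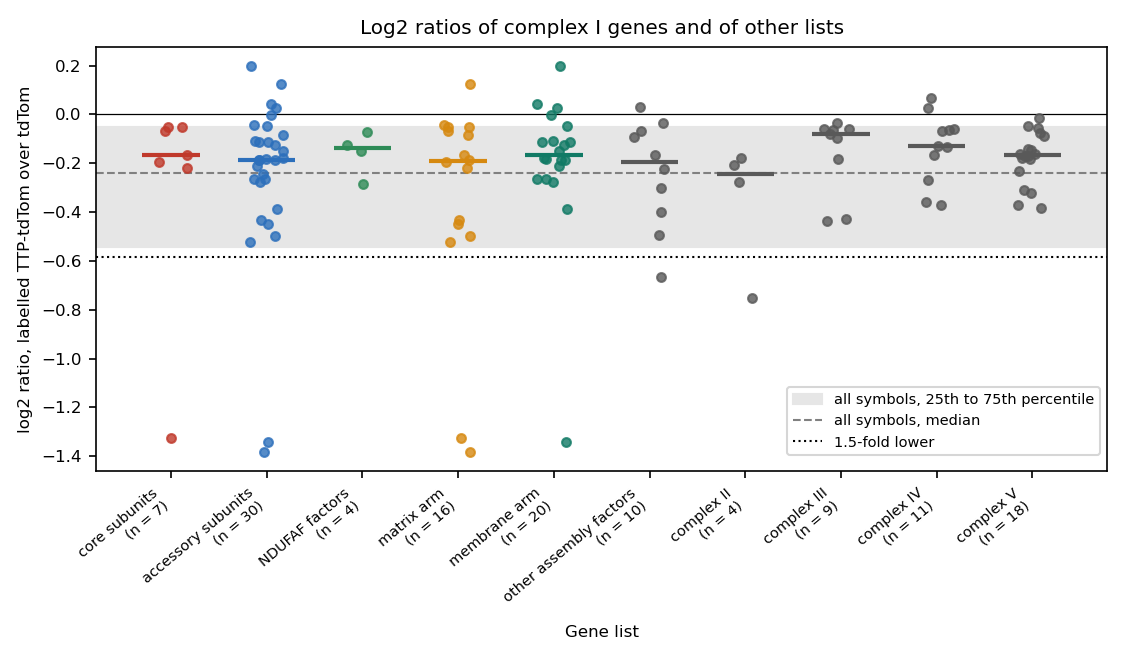
Log2 ratio of FPKM (labelled TTP-tdTom over tdTom) by gene list. Each point is 1 gene with a mean FPKM of at least 1, and each bar is the list's median. The arms regroup the subunits, and NDUFA4 is drawn in complex IV. NDUFAF5 to NDUFAF8, COA1 and DMAC1, listed under older symbols, are left out. The 3 points near -1.38 to -1.33 in the complex I lists stand apart, and the other points, except TMEM70 and SDHD, lie inside or above the band, which spans the interquartile range of all symbols (-0.54 to -0.05).

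AU-rich elements are built on the pentamer AUUUA, and the heptamer UAUUUAU is a core of TTP-binding sites. They were searched, in the sense strand and with T for U, in the longest 3′UTR among the GENCODE transcripts that match the RefSeq names of each locus. A transcript was found for 41 of the 42 loci (not for NDUFA6) and for 11260 of the 11616 symbols. The windows show sites of the 3 lowest members and of every other member that held the heptamer. Heptamers can thus be compared between members with and without a low ratio. Pentamer windows are examples from NDUFB5 (10 copies) and NDUFA5 (6 copies), and no separate pentamer window is shown for other members. Each window has up to 8 bases on either side and the motif in capitals. Positions count from the first base after the stop codon.
NDUFS1, heptamer at 3149: aaataactTATTTATggctacac
NDUFS1, overlapping heptamers, first at 7145: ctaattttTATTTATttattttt
NDUFB5, pentamer at 696: tattaagcATTTAttgtctgc
NDUFA5, pentamer at 396: ctaaacaaATTTAtagattac
NDUFS4, heptamer at 52: ctgtgcagTATTTATagtccatg
NDUFA9, heptamer at 226: atatatacTATTTATtctctgaa
NDUFB4, heptamer at 265: gtgaattcTATTTATgttggtca
NDUFB4, overlapping heptamers, first at 838: acctttttTATTTATttattttt
NDUFA10, heptamer at 519: gcctactgTATTTATtttagtaa
NDUFAF4, heptamer at 128: actcttaaTATTTATtgagctcc

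The heptamer was in 6 of the 41 members (14.6%) and in 34.4% of all symbols. Of the 3 lowest members, 1 held it. At least 1.5-fold lower were 1 of the 6 members with the heptamer (16.7%) and 2 of the 35 without it (5.71%), against 40.06% and 13.95% of all symbols. NDUFS1 had 3 copies in a 3′UTR of 9368 bases, whereas NDUFA5 held 0 in 1090 bases and NDUFB5 held 0 in 3607 bases. NDUFB4 held 3 copies in 1031 bases, and its FPKM was 61.0 in tdTom and 56.6 in the group labelled TTP-tdTom (log2 ratio -0.11). NDUFA10 and NDUFAF4, with 1 copy each, had log2 ratios of 0.03 and -0.15. NDUFS4 and NDUFA9, also with 1 copy each, had -0.52 and -0.50. Copies depend on the annotated isoform: the shortest matching 3′UTRs of NDUFS1 (84 bases) and NDUFB4 (230 bases) held 0, and which isoforms these cells used was not tested. For the pentamer, the shortest 3′UTRs held 0 copies in NDUFS1 and 1 in NDUFB5 (457 bases), where the longest held 20 and 10.

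The shorter pentamer was in 20 of the 41 members and in 72.0% of all symbols. NDUFA5 held 6 copies, NDUFB5 10 and NDUFS1 20. The 21 members without it had log2 ratios from -0.45 to 0.04, and 0 of them was at least 1.5-fold lower, where 5.29% of all symbols without it were. Among the 20 members with it, 3 were at least 1.5-fold lower (15.0%), against 29.8% of all symbols with it. NDUFA9 held 21 copies in 7209 bases at a log2 ratio of -0.50. Across genes, the number of copies and the log2 ratio had a Spearman's rho of -0.20 and a Pearson's r of -0.59 in the 41 members, and -0.43 and -0.32 in all symbols with a transcript, which share the same libraries. Without the 3 lowest members they were 0.011 and -0.25 in the other 38. That cut was made on the log2 ratio itself, which can weaken a correlation, and was not made in all symbols.

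Complex I mRNAs are short, and their 3′UTRs are shorter still. The median transcript had 991 bases in the 41 members and 3210 in all symbols, and the median 3′UTR had 180 and 1188 bases. The 24 members with a 3′UTR under 250 bases had a median log2 ratio of -0.17, with 0 at least 1.5-fold lower, against 7.97% of all symbols of that length. By the longest annotated isoform, the 3 lowest members were all among the 11 with a 3′UTR of 1000 bases or more; by the shortest, NDUFS1 and NDUFB5 were not. In that class 27.3% of the members and 30.6% of all symbols were at least 1.5-fold lower. NDUFV3 (4283 bases) and NDUFA11 (1641 bases) were in the same class by the longest isoform and had the highest ratios of the set. By their shortest matching 3′UTRs (84 and 65 bases) they too were outside it.

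The 3 lowest members also had transcripts poor in GC: 36.4% for NDUFA5, 39.8% for NDUFB5 and 42.1% for NDUFS1. The median was 50.2% in the 41 members and 48.2% in all symbols. Of the 10 members under 45% GC, 3 were at least 1.5-fold lower (30.0%), and among all symbols under 45% the share was 45.2%. Of the 19 members from 45% to under 55% and the 12 members at 55% or more, 0 was, where the shares of all symbols were 14.1% and 4.14%. NDUFAF4, with the lowest GC of the set (36.3%), and NDUFA4 (40.4%) had log2 ratios of -0.15 and 0.02. NDUFB6 (41.7%), NDUFS4 (42.8%) and NDUFA9 (43.6%) had -0.39, -0.52 and -0.50. The remaining members under 45%, NDUFB4 (41.7%) and NDUFB3 (44.1%), had -0.11 and -0.18. The median log2 ratio of the 10 members under 45% was -0.44, beside -0.52 for all symbols under 45%. Across genes, GC content and the log2 ratio had a Spearman's rho of 0.40 in the 41 members and 0.49 in 11260 symbols. It was 0.28 in the 38 members other than the 3 lowest, a cut made on the log2 ratio itself. All these values come from the same 2 groups of libraries. The part of GC content in the low values of the 3 members was not tested.

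**Figure D3:**
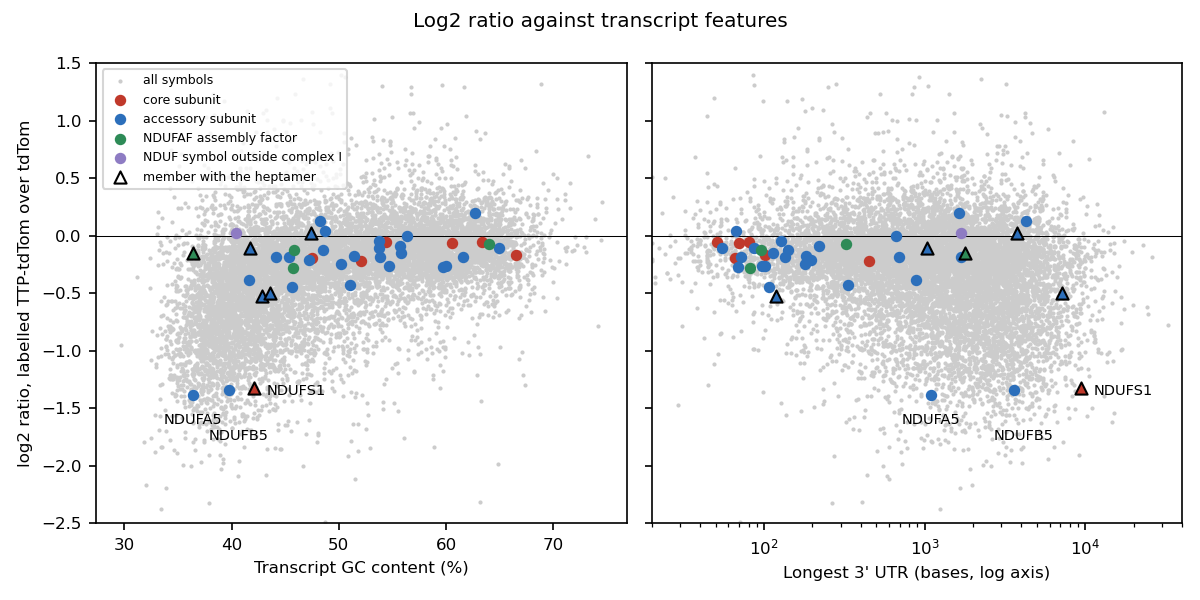
Log2 ratio (labelled TTP-tdTom over tdTom) against transcript GC content in percent (left) and length of the longest 3′UTR in bases on a log axis (right); grey points are all symbols, of which 63 lie outside the plotted ratios, coloured points are NDUF members by class, and triangles hold the heptamer. NDUFA5, NDUFB5 and NDUFS1 lie at low GC and long 3′UTRs, where many other genes have low ratios too. The other members under 45% GC lie between -0.52 and 0.02, and those with a 3′UTR of 1000 bases or more between -0.50 and 0.20.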

How the data were processed

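The authors prepared strand-specific paired-end libraries from the 6 samples. Alignment was to Hs37D5, the GRCh37 assembly with decoys, and expression was calculated with Cufflinks. The submitters' processing notes name TopHat2 2.0.13 and Cufflinks 2.2.1. The deposited FPKM values are fragments scaled by the authors to transcript length and library size, with 1 value for each locus in each group. Fold changes, test statistics, p-values and q-values of the authors' own comparison stand in the same table and were not used.

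Ratios were taken here from the FPKM of both groups without a pseudocount, for symbols with a mean FPKM of at least 1 and above 0 in both groups. Where a symbol stood at more than 1 locus, the one with more RefSeq names was taken, and among equals the one with the higher summed FPKM. The members and gene lists were chosen with earlier results of these data known. Genes named singly are the core subunits, the NDUFAF factors and the extremes of other lists. Among accessory subunits they are the 6 lowest and 6 highest ratios and the 3 highest FPKM. NDUFB6, NDUFB4, NDUFB3, NDUFA1, NDUFAB1, NDUFC2 and the named factors of other lists beyond the extremes were added after their values were seen. Values of some single genes are not reported here, although they are in the counts and medians. Locus coordinates are 1-based and cover the region of overlapping genes, which 10 of the 43 loci share with another symbol. Of the 43, 19 have named pseudogenes. Older symbols were matched through RefSeq synonyms (GRCh38.p14), and transcript sequences came from GENCODE release 29, with names and sequences only. Counts and ratios were tested on simulated data. No test between groups was run, since the table gives 1 FPKM value per group and the authors' test columns were left aside. Alternatives were pseudocounts of 0.1 and 1, mean FPKM filters of 0 and 10, a limit of 0.8 of the tdTom FPKM, a fold of 2, sums over loci, the highest locus, centring and rescaling. Python 3.11.15, numpy 2.4.6, pandas 2.3.3 and matplotlib 3.10.9 were used.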

Additional observations from a re-analysis of the deposited data

How the results depend on the processing

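No paired analysis was possible because each group has a single deposited value. For the same reason neither a replicate block nor leaving out replicates could be run. In the absence of replicate spread, a median counted as moved when it changed by over 0.1 on the log2 scale. The 3 loci at least 1.5-fold lower were NDUFA5, NDUFB5 and NDUFS1 under every pseudocount, filter, choice of locus and scaling tried, and at a fold of 2; at a limit of 0.8 of the tdTom FPKM there were 8. Centring on the median of all symbols turned the median log2 ratios above 0: 0.067 for all NDUF loci, 0.072 for core subunits, 0.055 for accessory subunits, 0.10 for NDUFAF factors, 0.049 for the matrix arm and 0.076 for the membrane arm. Rescaling to the same FPKM sum over symbols gave 0.041, 0.051, 0.034, 0.081, 0.028 and 0.054 in the same order. Both shift every gene alike by construction: 13 of 42 loci were then below 0 after centring and 15 of 43 after rescaling, and 13.2% and 13.7% of all symbols were at least 1.5-fold lower. Adding the older symbols of NDUFAF5 to NDUFAF8, chosen after seeing the data, moved the NDUFAF median from -0.14 to -0.25. The other 45 values of these counts and medians stayed within the limits. The table gives no fragment counts, so no precision is given for low values such as that of NDUFA4L2.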

Other observations

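Member symbols were listed at 9 further loci, each with the coordinates of the main locus, and 6 of them were under 1 FPKM in both groups. NDUFV1 had such a locus at an FPKM of 0.159 in tdTom and 1.73 in the group labelled TTP-tdTom, and NDUFC2-KCTD14 had one at 0.223 and 2.36, both higher in the labelled group. The further locus of NDUFS8 was at 2.79 and 2.18 and that of NDUFA5 at 0.205 and 0.592. Summing all loci of a symbol left NDUFA5, NDUFB5 and NDUFS1 as the members at least 1.5-fold lower, and turned the log2 ratio of NDUFV1 from -0.067 to 0.0046.

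Some genes share a listed region with a member. KBTBD4, in the region of NDUFS3 (19.7 and 19.0), had an FPKM of 9.17 in tdTom and 11.5 in the labelled group, and PTPMT1, in the same region, had 12.3 and 10.05. THRSP, in the region of NDUFC2 (53.0 and 46.6), had 1.75 and 0.814.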
